A study of Mus musculus with 6 samples.

Results

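The report follows 8 genes of the p53 and retinoblastoma (RB) pathways, Trp53, Mdm2, Mdm4, Cdkn1a, Cdkn1b, Rb1, Rbl1 and Rbl2, through the cell classes of the mouse uterine tube. They were taken by symbol from the 50559 genes listed in each of 6 deposited count matrices, and all 8 were found and passed the low-count filter in every test below. The libraries are 10x Genomics single-cell 3' v2 preparations of the uterine tube (oviduct) of adult C57BL6 females in estrus, with no treatment or engineered allele in the labels. There were 3 libraries of the distal section, on the side of the ovary, titled 1, 2 and 3, and 3 of the proximal section, on the side of the uterus, titled 2, 3 and 4. The tissue of 1 section was combined within a group of mice before digestion, so a library is a pool, and the spread between libraries is the only replicate error. The question put to the data was how these genes are distributed over ciliated epithelium, non-ciliated epithelium and stroma, and whether the 2 sections differ.

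Trp53 encodes p53, a transcription factor that halts the cell cycle or triggers cell death after DNA damage. Mdm2 is the ubiquitin ligase that marks p53 for destruction and is itself switched on by p53, and Mdm4 is its partner, which blocks p53 at promoters. Cdkn1a encodes p21, the cyclin-dependent kinase inhibitor most directly induced by p53, and Cdkn1b encodes p27, a related inhibitor of resting cells. The 3 pocket proteins, encoded by Rb1, Rbl1 (p107) and Rbl2 (p130), hold E2F transcription factors in check until cyclin-dependent kinases phosphorylate them. Loss of p53 and RB function in the tubal epithelium is used in mice to model high-grade serous carcinoma. Transcript counts show neither p53 protein nor the phosphorylation of the pocket proteins.

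Promoter windows of the 8 genes were searched for letters bound by p53 and by E2F. The 2 windows with a match are shown, from RefSeq on GRCm38.p6. The deposited counts were made on mm39, so these coordinates were not set against the libraries. Of the 8 genes, 7 had a window of 250 bases before to 50 bases after a transcription start (9 windows in all). For p53 the letters searched were CATG, any 6 bases and CATG again, a pair of p53 core tetramers at the spacing of adjoining half-sites, which read the same on both strands. For E2F the letters TTTCGCGC, TTTGGCGC, TTTCCCGC and TTTGCCGC were searched on both strands. The p53 core pair was found in 1 of the 9 windows, that of the upstream Cdkn1a start, and in 0.712% of all 32851 windows of that length. An E2F match was found in 1 of the 9 windows, that of Rbl1, and in 2.26% of all windows. The Cdkn1a sequence lies at chr17:29090907-29090968 on the plus strand, with the core pair in capitals from base -48 to base -35 before the start. The Rbl1 sequence lies at chr2:157204535-157204576 on the minus strand, with the E2F match in capitals from base -18 to base -11. Both are written 5′ to 3′, and a match describes letters only.
Cdkn1a: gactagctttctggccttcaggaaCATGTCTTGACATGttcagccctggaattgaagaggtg
Rbl1: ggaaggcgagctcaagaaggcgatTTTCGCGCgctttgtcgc

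After filtering, 18466 cells remained, with 4115 to 6652 per distal and 325 to 1133 per proximal library, and median depths from 730 unique molecular identifiers (UMIs, single captured molecules) in proximal 3 to 4648 in distal 2. Classes were named from marker genes, so ciliated epithelium, fibroblast and so on stand for cells like these. Pathway genes were left out of the clustering. Ciliated epithelium held 440 to 1172 cells in the distal libraries, but 24, 7 and 33 in proximal 2, 3 and 4. Non-ciliated epithelium held 766 to 1493 and 84 to 230 cells, fibroblasts 2263 to 2372 and 132 to 610, and smooth muscle 152 to 1253 and 0 to 46. Pairs of libraries shared 0 to 58 barcodes, where random draws of the barcode whitelist would give 0.512 to 60.3. All 12 ciliary markers had counts in every ciliated sum, and their summed level in distal non-ciliated epithelium was 1.38% of that in ciliated cells. The 11 non-ciliated markers summed to 32.3% of their own level in distal ciliated cells (20.4% without the cluster E9 described next) and to 68.7% in proximal ones. An epithelial cluster of 290 cells, E9, was assigned to the ciliated class but had a median of 16283.5 UMIs and all 11 non-ciliated markers detected, and the values of the 8 genes that move most without it are given both ways. Levels below are in CPM (counts-per-million): UMIs summed over the cells of a class in a library, divided by the total UMIs of that sum. They are compared between classes for 1 gene at a time, and not between genes.

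Trp53 was higher in stroma than in epithelium and lowest in ciliated cells. In fibroblasts it stood at 50.2, 68.4 and 55.7 CPM in distal 1, 2 and 3, in non-ciliated epithelium at 26.3, 31.9 and 26.7 CPM, and in ciliated epithelium at 10.4, 14.7 and 16.8 CPM. The 3 sets did not overlap. Without E9 the ciliated values were lower still, at 7.18, 6.21 and 10.4 CPM from 16, 8 and 25 UMIs. Smooth muscle gave 60.0, 91.2 and 73.3 CPM, a range that overlapped that of fibroblasts. Among the 7 classes with 20 cells in every distal library, smooth muscle, T and NK cells, blood endothelium, myeloid cells and fibroblasts followed each other in mean level without a step larger than the spread of the paired differences. The steps from fibroblasts to non-ciliated epithelium (0.92 ± 0.09 on the log2 scale of CPM plus 5, SD, n = 3) and from there to ciliated epithelium (0.82 ± 0.25) exceeded it. The tests of these differences follow with those of the other genes.

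The p53 inhibitors ran the other way within the epithelium. Mdm2 reached 121, 77.6 and 99.4 CPM in distal ciliated cells and 29.7, 27.3 and 37.2 CPM in non-ciliated cells, so every ciliated value was more than any non-ciliated one. Fibroblasts were almost level at 52.2, 52.2 and 50.9 CPM, and smooth muscle gave 43.6, 36.2 and 50.1 CPM. Mdm4 reached 59.8, 49.1 and 67.5 CPM in ciliated and 26.1, 14.5 and 32.0 CPM in non-ciliated cells. Fibroblasts gave 38.7, 31.9 and 37.8 CPM, between the 2 epithelial classes. As counts within 1 library, Mdm2 UMIs outnumbered Trp53 UMIs by 11.6, 5.27 and 5.90 to 1 in distal ciliated cells, and by 17.9, 14.5 and 12.0 to 1 without E9. The same ratio was 1.13, 0.858 and 1.39 in non-ciliated cells, 1.04, 0.763 and 0.913 in fibroblasts and 0.726, 0.397 and 0.684 in smooth muscle. Capture differs between genes, so only the change of the ratio from class to class can be read.

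Cdkn1a, like Mdm2 a p53 target, stood over the ciliated sums at 162, 149 and 152 CPM. Non-ciliated epithelium gave 63.5, 100.5 and 91.2 CPM, all below the ciliated values. Fibroblasts spread from 105 to 191 CPM and overlapped the ciliated class. Smooth muscle gave 97.8, 66.2 and 115 CPM. Among the 7 classes with 20 cells in every distal library, the highest means were in myeloid cells (235 ± 25.9 CPM, SD, n = 3) and blood endothelium (224 ± 73.1 CPM), which did not differ beyond their spread. Outside these classes, 28 granulosa or luteal cells of distal 1 gave 577 CPM from 133 UMIs. Cdkn1b varied less: 21.6, 15.7 and 14.9 CPM in ciliated cells, 23.4, 16.7 and 19.8 CPM in non-ciliated cells and 41.1, 19.3 and 24.8 CPM in fibroblasts. Distal 1 was highest for Cdkn1b in each of these 3 classes.

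The pocket protein genes each had their own pattern. Rb1 stood at 74.9, 72.2 and 59.0 CPM in ciliated cells, 32.5, 19.7 and 42.8 CPM in non-ciliated cells, 46.9, 37.3 and 48.1 CPM in fibroblasts and 79.2, 57.5 and 86.8 CPM in smooth muscle. Ciliated cells and smooth muscle were not separated beyond their spread, and non-ciliated cells had the lowest mean of all 7 classes. T and NK cells (96.1 ± 21.8 CPM) and blood endothelium (85.4 ± 19.7 CPM) had the highest Rb1 means (SD, n = 3). Rbl1 was highest in T and NK cells at 24.03 ± 4.70 CPM, with 15.1, 14.7 and 10.7 CPM in ciliated and 7.64, 14.3 and 14.1 CPM in non-ciliated epithelium. In fibroblasts it gave 5.60, 4.12 and 5.31 CPM, below every epithelial value. Rbl2 stood out in T and NK cells, at 77.1, 60.4 and 86.0 CPM from 45, 70 and 31 cells. In that class 1 UMI is 9.63 CPM in distal 1 and 14.3 CPM in distal 3. Its Rbl1 and Rbl2 values thus rest on few UMIs, those of Rbl1 on the fewest. The ciliated class came next for Rbl2 at 21.2, 16.2 and 19.5 CPM. The step between them was 1.72 ± 0.15 on the log2 scale of CPM plus 5. The remaining classes had mean Rbl2 levels of 14.7 to 18.2 CPM.

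**Figure D1:**
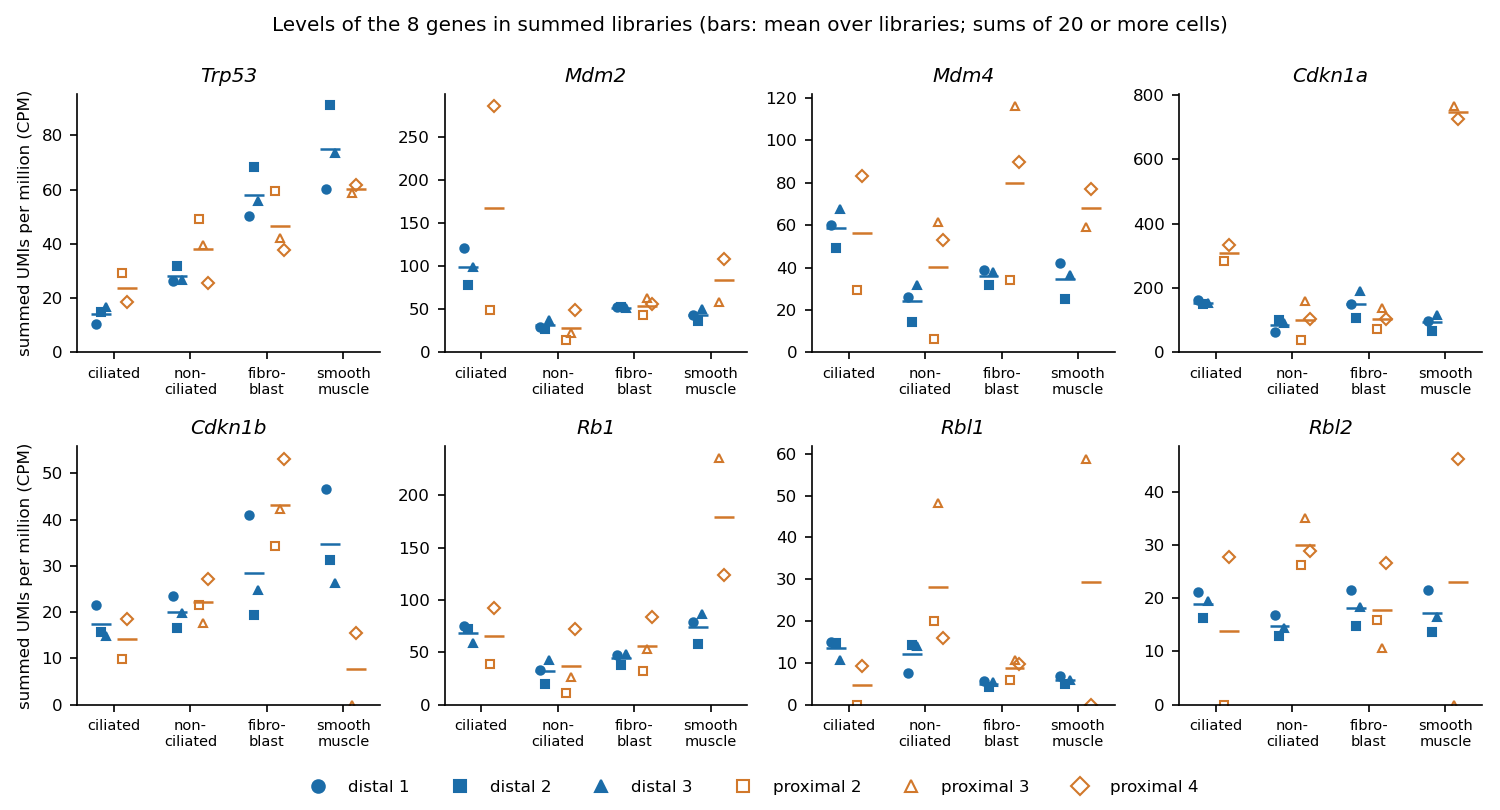
Levels of the 8 genes (vertical axes, CPM) in 4 cell classes, 1 point per library with at least 20 cells of the class, filled for distal and open for proximal, with a bar at the mean. Distal Trp53 falls from 74.8 CPM in smooth muscle to 14.0 CPM in ciliated cells, while distal Mdm2 is highest, at 99.4 CPM, in ciliated cells.

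Against non-ciliated epithelium, ciliated cells of the 3 distal libraries had higher Mdm2 (log2 fold change 1.45 ± 0.19, SE), Mdm4 (1.11 ± 0.19), Rb1 (0.94 ± 0.21) and Cdkn1a (0.68 ± 0.21), and lower Trp53 (-1.19 ± 0.21). These are 4 members called up and 1 called down of 8, by edgeR's quasi-likelihood test with the library as a block and the Benjamini-Hochberg adjustment over all 15217 genes tested. The 2 classes are far apart: 58.3% of all genes were called, 30% up and 28.3% down, so the number of members called is near the background. The adjusted p from edgeR was 1.215e-06 for Mdm2, 3.06e-05 for Mdm4, 5.49e-05 for Trp53, 0.000671 for Rb1 and 0.00707 for Cdkn1a. Mdm2, Mdm4, Cdkn1a, Rb1 and Rbl2 had a higher CPM in ciliated cells of every distal library, 5 of 8 where 42.2% of 19172 genes with at least 15 UMIs did. Without distal 1, Cdkn1a was no longer called (0.45, adjusted p = 0.21). In distal 3, cluster E9 held 19.2% of the ciliated cells, 60.4% of all their UMIs and 75.5% of their Trp53 UMIs. In distal 2 it held 8.18% of the cells, 36.8% of all UMIs and 73.3% of those of Trp53. Without E9 Trp53 differed by -1.98 (adjusted p = 3.09e-08) and Mdm2 by 1.65. Cdkn1b gave -0.42 ± 0.20 (adjusted p = 0.0821), Rbl2 0.18 ± 0.20 and Rbl1 -0.03 ± 0.25, none of them called. Because the classes were built from these same cells, the p-values describe them and are no independent test that they differ.

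Against fibroblasts, non-ciliated epithelium had higher Rbl1 (1.28 ± 0.26, adjusted p = 0.000873) and lower Trp53 (-0.97 ± 0.16, adjusted p = 0.000178), Cdkn1a (-0.74 ± 0.22), Mdm2 (-0.67 ± 0.17), Mdm4 (-0.57 ± 0.19) and Rb1 (-0.47 ± 0.18). That is 1 member up and 5 down of 8 in the same edgeR test, where 66.5% of 16150 genes were called, 33.3% up and 33.2% down. The calls of Trp53 and Rbl1 held under all 12 alternatives. Without distal 1 the calls of Mdm2 (adjusted p = 0.0627), Mdm4 (0.0701), Cdkn1a (0.145) and Rb1 (0.177) were lost. Without distal 2 those of Mdm4 (0.0787) and Rb1 (0.1405) were lost. Cdkn1b was called under 4 alternatives, namely without distal 2 (-0.56, adjusted p = 0.00915), with a 10% mitochondrial maximum (-0.44, 0.0498), with doublets kept (-0.42, 0.0461) and with the proximal libraries added (-0.51, 0.0298). Fitted without the library block, Mdm4 (0.103) and Rb1 (0.182) also lost their calls, as Rb1 did by DESeq2 (0.0813) and Cdkn1a with the proximal libraries added (-0.48, adjusted p = 0.12). The summed level of 15 genes known to respond to tissue dissociation, such as Fos, Jun and Egr1, was 13120 ± 5174 CPM in non-ciliated cells and 18400 ± 2366 CPM in fibroblasts (SD, n = 3). Its part in these differences, Cdkn1a included, was not tested.

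Smooth muscle of the distal libraries had higher Rb1 (0.73 ± 0.12, adjusted p = 0.000134) and Trp53 (0.32 ± 0.11, adjusted p = 0.0327) than fibroblasts, and lower Cdkn1a (-0.70 ± 0.10, adjusted p = 7.785e-05). These 2 calls up and 1 down of 8 compare with 42.8% of 14594 genes called by edgeR, 20.9% up and 21.9% down. The Rb1 call held under all 11 alternatives. The Trp53 call was lost under 7 of the 11, among them without distal 1 (adjusted p = 0.078), distal 2 (0.0799) or distal 3 (0.169), by DESeq2 (0.228) and the fit without the block (0.342). Without the block Cdkn1a also fell short (adjusted p = 0.0517), and with the proximal libraries added its difference was 0.07 (adjusted p = 0.908). The dissociation-response genes summed to 12780 ± 3021 CPM in smooth muscle, lower than in fibroblasts as Cdkn1a was, and their part was not tested. Fibroblast markers in smooth muscle reached 11.5% of their own level.

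**Figure D2:**
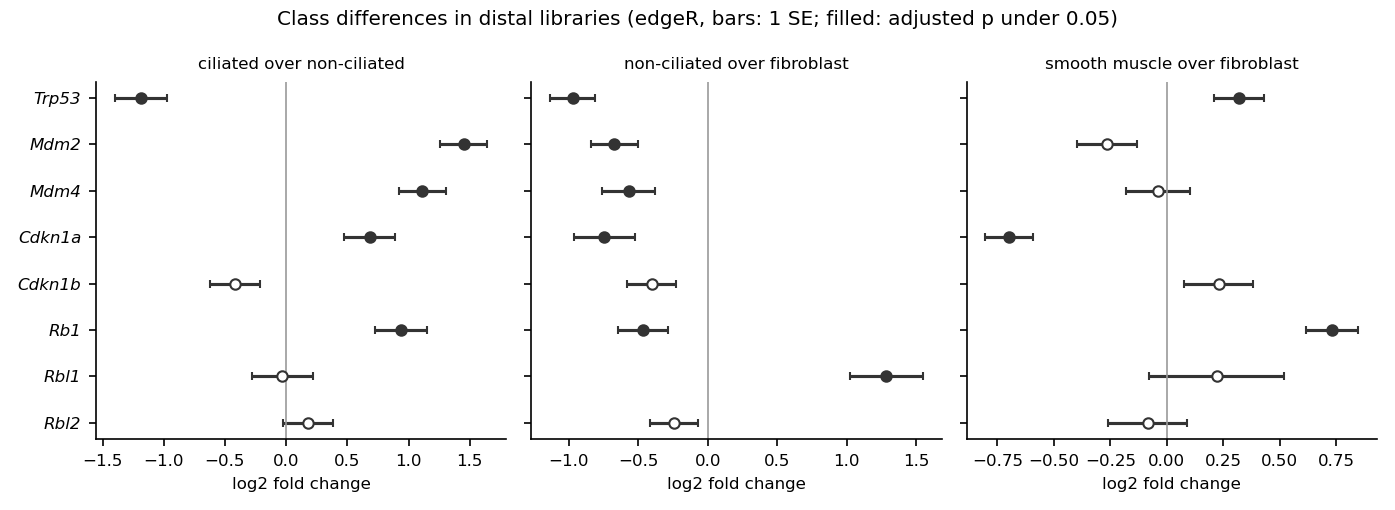
Log2 fold changes (horizontal axes) of the 8 genes in 3 class comparisons of the distal libraries, with bars of 1 SE and filled points where edgeR's adjusted p was under 0.05. Trp53 is at -1.19 and Mdm2 at 1.45 in ciliated over non-ciliated cells, and Rbl1 is the filled point to the right, at 1.28, in non-ciliated cells over fibroblasts.

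The wider pathways are given as 4 lists that contain some of the 8 genes, chosen with earlier results of these data known. Of 19 p53 regulators and relatives, 18 were tested between ciliated and non-ciliated epithelium, with 8 up, 2 down and a median log2 fold change of 0.33, against -0.01 for all genes. That is 44.4% up and 11.1% down, where 30% and 28.3% of all genes were. The sister gene Trp73, whose product is needed for multiciliated cells, stood at 97.1 CPM in ciliated and 1.86 CPM in non-ciliated cells (5.54 ± 0.26). The damage checkpoint kinase gene Chek2 stood at 85.3 and 5.05 CPM (3.88 ± 0.22), and Atr, another checkpoint kinase gene, at 39.0 and 8.47 CPM (1.98 ± 0.21). Of 35 p53 targets, 33 were tested, with 9 up and 13 down (median -0.30), 27.3% and 39.4% against the same 30% and 28.3%. The largest called rise was that of Ak1, at 5.18 to 5.75 over the alternatives. Polk, a translesion DNA polymerase gene, rose by 3.20 ± 0.22, Trp53inp1 rose by 1.70 ± 0.19, and Gadd45a (-1.43 ± 0.23) and Dram1 (-1.62 ± 0.25) fell. Dcxr also fell, at -1.92 to -1.25 over the alternatives. All of these named genes had an adjusted p under 0.05 in edgeR and kept it under every alternative run, and without E9 Dram1 differed by -3.37.

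Of 35 RB pathway genes, 31 were tested in the same comparison, with 9 up and 6 down (median 0.03), 48.4% called where 58.3% of all genes were. The D cyclins, which drive phosphorylation of the pocket proteins, were split by class. Ccnd1 stood at 231 CPM in non-ciliated cells, 94.65 CPM in ciliated cells and 8.09 CPM in fibroblasts. Ccnd2 stood at 1.54, 21.9 and 180 CPM in the same order. Non-ciliated epithelium thus had Ccnd1 higher (4.97 ± 0.23) and Ccnd2 lower (-6.75 ± 0.28) than fibroblasts, both called by edgeR under every alternative run. With the proximal libraries added, Ccnd2 differed by -4.00. Between ciliated and non-ciliated cells Ccnd1 differed by -1.54 ± 0.25, and by -4.21 without E9, which left 14.6 ± 8.65 CPM in ciliated cells (SD, n = 3). Among inhibitors, Cdkn2b was higher (3.47 ± 0.19) and Cdkn1c lower (-3.01 ± 0.20) in non-ciliated cells than in fibroblasts. In that comparison 31 RB pathway genes had 8 up and 15 down (median -0.47), 74.2% called where 66.5% of all genes were. Of 30 E2F targets 25 were tested there, with 0 up, 17 down and 18 at an unadjusted p under 0.05 (median -1.21, all genes -0.04). The 17 are 68% of those tested, where 33.2% of all genes were called down. The fibroblast class includes the dividing cells described below, 51 of 6948 distal fibroblasts. No fit left them out, and their part in the E2F target difference was not tested. Between ciliated and non-ciliated cells 17 E2F targets were tested, with 5 up and 2 down, 41.2% called where 58.3% of all genes were. The 30 E2F targets summed to 160.5 ± 23.35 CPM in ciliated cells, 116 ± 4.52 CPM in non-ciliated cells and 222 ± 14.2 CPM in fibroblasts (SD, n = 3).

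Ciliated cells were shallower than non-ciliated cells (medians of 2400 and 4990.5 UMIs), so detection was compared as the share of cells with a UMI expected when each cell is drawn down to 1000 UMIs. This left out 453 of 2257 distal ciliated and 49 of 3343 distal non-ciliated cells. Mdm2 was detected in 10.8%, 7.99% and 11.25% of ciliated cells and in 2.62%, 2.53% and 3.44% of non-ciliated cells of distal 1, 2 and 3. Trp53 was detected in 0.783%, 1.075% and 1.22% of ciliated and 2.96%, 3.93% and 3.09% of non-ciliated cells. Neither pair of ranges overlapped. Without E9 the ciliated shares were 11.1%, 8.25% and 12.3% for Mdm2 and 0.597%, 0.890% and 0.956% for Trp53. Rb1 averaged 6.96% ± 0.503 and 2.61% ± 1.19 (SD, n = 3), Mdm4 6.03% ± 0.298 and 2.05% ± 1.05, and Cdkn1a 13.7% ± 1.05 and 6.74% ± 1.76. The shares were higher in ciliated cells of every distal library for 4 of the 8 genes, where 38.8% of 19172 genes with at least 15 UMIs were. Without thinning, Mdm2 was detected in 30.4%, 26.4% and 32.5% of ciliated and 15.5%, 16.8% and 23.5% of non-ciliated cells. Unthinned Rb1 gave 23.3%, 22.95% and 21.2% against 15.3%, 11.2% and 25.1%, so without thinning the order in distal 3 was the reverse. No class known to lack these genes was at hand to measure free RNA with. As a substitute, ciliary markers in distal fibroblasts summed to 0.626% of their level in ciliated cells.

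**Figure D3:**
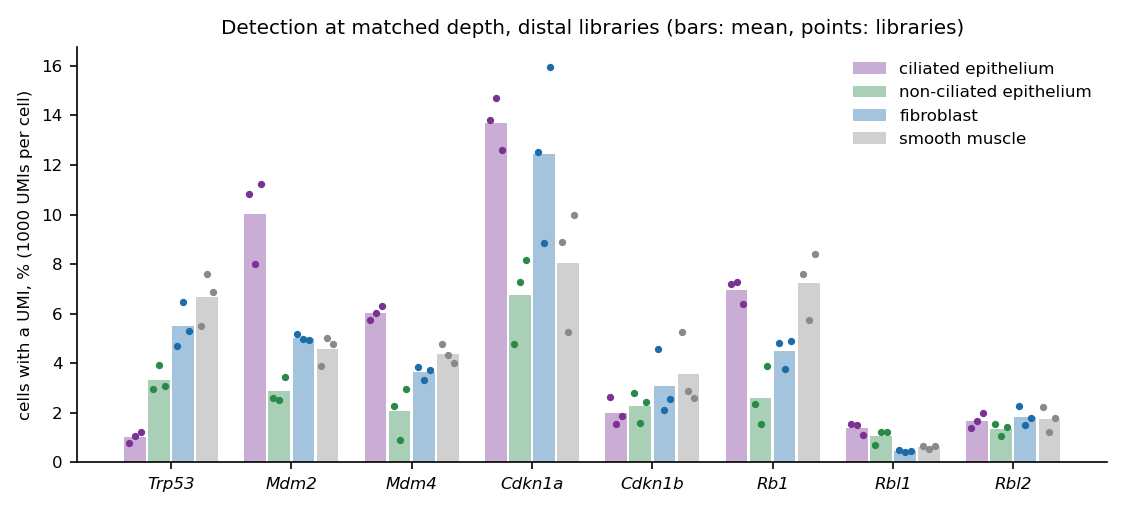
Share of cells with at least 1 UMI of each gene (vertical axis, percent) in the 3 distal libraries, expected at 1000 UMIs per cell, with bars for the mean and points for libraries in 4 classes. Mdm2 averages 10.0% in ciliated and 2.86% in non-ciliated cells, and Trp53 1.03% and 3.33%.

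Within the epithelium the 8 genes also differed between clusters, which are described here without a test. The 13 clusters with at least 20 cells in each distal library comprise 6 ciliated ones (E2, E5, E6, E9, E10 and E13) and 7 non-ciliated ones. For Mdm2 the 6 ciliated clusters took the first 6 places, from 128 ± 41.5 CPM in E5 (led by Rgs22 and Dnah12) to 71.9 ± 14.0 CPM in E9. The highest non-ciliated cluster followed, E3 (Msln, Rspo1), at 41.8 ± 11.9 CPM (SD, n = 3), and the step from E9 to E3 held in 3 of 3 libraries. Trp53 was under 12 CPM in 5 of the 6 ciliated clusters and 26.9 ± 5.11 CPM in E9. In E13 (Wfdc12, S100g), 0 of 237873 distal UMIs were of Trp53, where 3 counts would be 12.6 CPM, so E13 cannot be placed below the other 4. Non-ciliated clusters ran from 17.0 CPM in E4 to 50.9 ± 30.5 CPM in E8, and E8 and E1 did not differ beyond their spread.

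The same clusters divided the ciliated class for Mdm4, Rb1 and Cdkn1a. Mdm4 was 119, 103 and 128 CPM in E5 against 45.8, 45.6 and 69.2 CPM in E6 and 0, 16.4 and 26.6 CPM in E13. Rb1 was high in E5 (98.6 ± 16.2 CPM) and E6 (108 ± 9.50 CPM), and low in E13, with 12.8, 24.6 and 0 CPM. Cdkn1a was highest in E13, at 281, 345 and 213 CPM, and lowest among the ciliated clusters in E5, at 122, 80.5 and 112 CPM. E13 was shallow (median 1336 UMIs), and its Rb1 values rest on 1, 3 and 0 UMIs. Of the non-ciliated clusters, E1 (Upk1a, S100b) had both the lowest Mdm4, at 6.57, 2.09 and 3.03 CPM, and the lowest mean Rb1, at 11.4 ± 4.83 CPM. E1 was also among the highest for Trp53, with 38.8, 44.5 and 39.4 CPM. E3 had 36.6 ± 4.70 CPM of Mdm4 at a like Trp53 level (38.5 ± 7.98 CPM). E1 and E3 had median depths of 3047.5 and 5914 UMIs, and the part of depth in this difference was not tested.

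**Figure D4:**
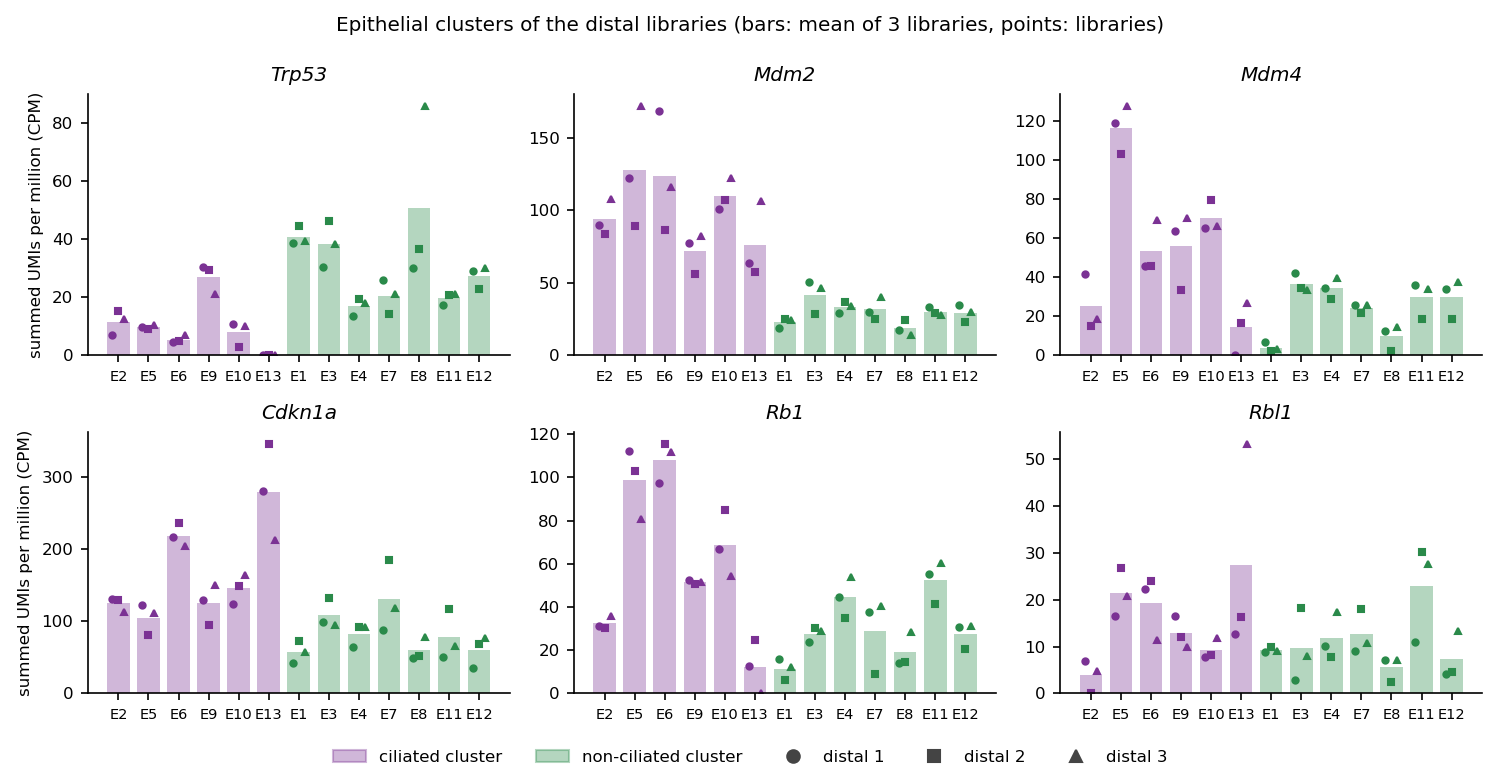
Levels of 6 of the genes (vertical axes, CPM) in 13 epithelial clusters of the distal libraries, ciliated clusters to the left and non-ciliated to the right, with bars for the mean of 3 libraries and points for libraries. All 6 ciliated clusters lie above the 7 others for Mdm2, and E5 stands above the rest for Mdm4 with a mean of 116 CPM.

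Among the fibroblasts, a cluster of 54 cells led by Ube2c, Birc5 and Cenpf was taken as cells in division, 51 of them in distal libraries. Pooled over these, Rbl1, itself an E2F-regulated gene with the E2F match shown above, had 13 of 322599 UMIs. That is 40.3 CPM with an exact 95% Poisson interval of 21.5 to 68.9 CPM, against 4.41 CPM in the other distal fibroblasts. By library it was 118, 22.3 and 32.4 CPM against 4.87, 3.84 and 4.91 CPM, from 6, 4 and 3 UMIs. For each of the other 7 genes the pooled interval in dividing cells held the level of the other fibroblasts. Cdkn1a did so at 155 CPM against 139.8 CPM, but its libraries differed, with 19.6, 207 and 130 CPM in dividing cells (1, 37 and 12 UMIs) against 152, 104 and 192 CPM in the others. Rb1 gave 31.0 CPM (14.9 to 57.0) against 42.9 CPM and Rbl2 12.4 CPM (3.38 to 31.8) against 17.7 CPM. These intervals cover counting error only, and the groups come from clustering, so no test is given.

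Between the sections no member was called in the tests by edgeR, which fit the libraries of a class without pairing. In non-ciliated epithelium, 0 of 8 members were called proximal over distal (1 at an unadjusted p under 0.05, and 0 by DESeq2), where 3.5% of 12498 genes were called, 2.56% up and 0.944% down. Trp53 stood at 49.3, 39.5 and 25.6 CPM in proximal 2, 3 and 4 (0.34 ± 0.41), overlapping the distal range. Rbl2 gave 26.2, 35.1 and 28.8 CPM, all above the distal 16.9, 12.9 and 14.4 CPM (0.87 ± 0.33, adjusted p = 0.1985). Rbl1 gave 20.01, 48.3 and 16.0 CPM (0.92 ± 0.48, adjusted p = 0.362), also above the distal range. The proximal sums held 227868 to 649591 UMIs, so these Rbl1 values rest on few UMIs. For this class and those below, the share of all genes whose proximal and distal values do not overlap was not counted. The other 5 genes lay between -0.26 ± 0.43 (Mdm2) and 0.44 ± 0.58 (Mdm4). In counts simulated for this comparison, edgeR called 2 of 100 genes changed 2-fold and 49 of 100 changed 4-fold, so changes of such sizes could go uncalled here. Without proximal 2, 3130 genes were called but none of the 8, and Trp53 differed by -0.22. The proximal cells of this class fell mainly in E14 (Penk, Serpina1e; 2, 80 and 83 cells of proximal 2, 3 and 4), E16 (Serpina1e, Crabp2; 84, 2 and 2 cells) and E1 (125, 0 and 20 cells), with 19, 2 and 24 cells in other clusters. E14 and E16 made up 37.25% and 19.9% of the proximal but 0.209% and 0.12% of the distal cells of the class.

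In fibroblasts 0 of 8 members were called (2 at an unadjusted p under 0.05, 0 by DESeq2), where 2.95% of 13761 genes were, 2.01% up and 0.945% down. Cdkn1a gave 71.9, 137.5 and 105 CPM in proximal 2, 3 and 4 (-0.78 ± 0.30, adjusted p = 0.215) and Mdm4 34.2, 116 and 89.55 CPM (0.72 ± 0.32, adjusted p = 0.291). Without proximal 2, Mdm4 was called at 1.10 (adjusted p = 0.0123). Trp53 gave 59.4, 42.3 and 37.8 CPM (-0.31 ± 0.32), the last 2 below every distal value. Cluster makeup differed here too, with C2 (Mgp, Dcn) and C16 (Apod, Pi16) at 56.5% and 23.97% of proximal and 23.0% and 0.331% of distal fibroblasts, and C1 (Htra3, Dcn) at 2.77% and 33.45%. In ciliated epithelium, where proximal 3 had too few cells (7), 0 of 8 members were called (1 at an unadjusted p under 0.05), where 0.905% of 13151 genes were, 0.525% up and 0.38% down, and all genes had a median of -0.22. Cdkn1a gave 283 and 332 CPM in proximal 2 and 4, above every distal value (0.90 ± 0.35, adjusted p = 0.234). DESeq2 called it (0.97, adjusted p = 0.008055). Mdm2 was 48.9 CPM in proximal 2 and 286 CPM in proximal 4, on either side of the distal values (0.64 ± 0.50), and without proximal 4 it differed by -1.03. These 2 sums hold 24 and 33 cells with a different cluster makeup, E13 and E18 making up 35.9% and 53.1% of proximal but 6.87% and 0.222% of distal ciliated cells. E18 was led by Efhd1 and Krt17, and had all 11 non-ciliated markers detected beside 11 ciliary ones.

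The difference between the 2 region effects, non-ciliated epithelium minus fibroblasts, was tested as an interaction, and 0 of 8 members were called (0 at an unadjusted p under 0.05 and 0 by DESeq2), where 1.9% of 15760 genes were called, 0.673% up and 1.23% down. Trp53 gave 0.49 ± 0.35, Rbl2 0.66 ± 0.40 and Mdm4 -0.69 ± 0.45, against a median of -0.21 over all genes. With RLE in place of TMM scaling 153 genes were up and 169 down, in place of 106 and 194.

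**Figure D5:**
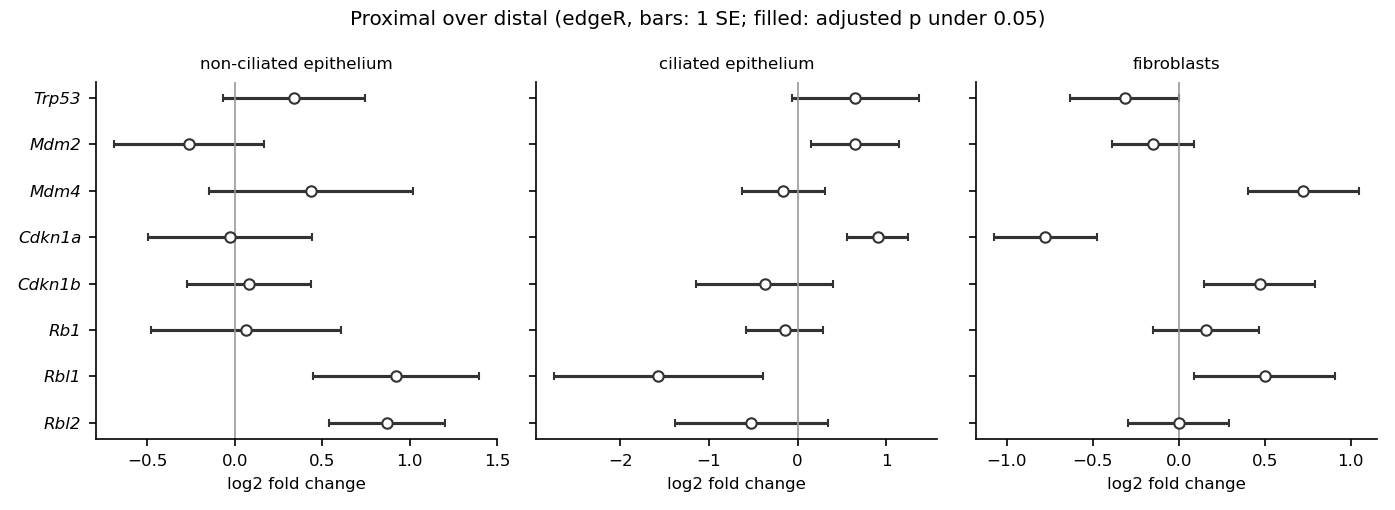
Log2 fold changes of proximal over distal libraries (horizontal axes) for the 8 genes in 3 classes, with bars of 1 SE. No point is filled, since none had an adjusted p under 0.05 in edgeR, and Cdkn1a lies at 0.90 in ciliated cells and at -0.78 in fibroblasts.

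In smooth muscle, where no test of the sections had been designed, Cdkn1a stood apart in the proximal libraries, a result chosen after its values were seen. It reached 765.5 CPM in proximal 3 (13 UMIs in 29 cells) and 725 CPM in proximal 4 (47 UMIs in 46 cells), against 66.2 to 115 CPM in the distal libraries. The class is made of different clusters in the 2 sections. C4 (Actg2, Myh11) held 1658 of 1815 distal cells, and C19 (Ctnna3, Mustn1) held 64 of 75 proximal cells and all 60 of their Cdkn1a UMIs. Within distal tissue C4 gave 74.4, 66.9 and 92.2 CPM, while C19 gave 419 CPM in distal 1 (130 cells) and 553.5 CPM in distal 3 (23 cells). Within C19 the proximal values were 862 and 806 CPM. At 1000 UMIs per cell, Cdkn1a was detected in 49.4% of the proximal 4 cells that were deep enough and in 8.04% ± 2.49 of distal cells (SD, n = 3). In C19 alone it was detected in 51.3% of the proximal 4 cells and in 29.6% and 46.2% of those of distal 1 and 3. Smooth muscle markers summed to 22320 and 23230 CPM in the 2 proximal sums and 22350 to 31730 CPM in the distal ones, with Actg2 at 0 in proximal 3. The dissociation-response genes summed to 29620 and 28330 CPM against 9545 to 15530 CPM. They include Nr4a1, at 3247 CPM in proximal and 565 CPM in distal smooth muscle. Their part in the Cdkn1a level was not tested. In fibroblasts of the same 2 libraries, Cdkn1a was 137.5 and 105 CPM.

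Likeness was measured as Pearson's r of log2(CPM + 5) over 43 sums (each library and class with at least 20 cells) against 8463 genes with a mean of at least 20 CPM. The sums share libraries and differ in depth, so the values are descriptions. Rb1 was most like Mef2d (r = 0.81), Sik3 (0.81) and Celf1 (0.80), and Rbl2 most like Polr3c (0.78), Zfp110 (0.76) and Ddx10 (0.74). Mdm4 was most like Ist1 (0.77), Gon4l (0.69) and Uba6 (0.67), and Cdkn1b like Ccndbp1 (0.73), Immp2l (0.72) and Mia2 (0.71). For Trp53 these were Exosc8 (0.68), Rsu1 (0.68) and Ncl (0.66), for Cdkn1a Tor1aip1 (0.66), Mcl1 (0.66) and Map3k3 (0.64), for Mdm2 Ubn2 (0.64), Odf2 (0.595) and Zfp444 (0.57), and for Rbl1 Ikzf2 (0.62), Dock5 (0.61) and Zc3hav1 (0.60). Among the 8 genes themselves the highest r was that of Cdkn1a and Rb1 (0.525), followed by Mdm4 and Rb1 (0.48) and Mdm2 and Rb1 (0.39). Trp53 and Mdm4 had the lowest (-0.35). Trp53 and its targets Cdkn1a (-0.03) and Mdm2 (-0.14) were close to 0.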

How the data were processed

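Single-cell 3' libraries of 3 distal and 3 proximal pools of tubes were analysed, grouped by the section in the labels. The deposited matrices hold raw UMI counts per gene and barcode, 1 per library, with 426707 to 32488144 UMIs per library. Per the file headers they came from Cell Ranger 7.0.0, while version 6.1.2 and the build mm39 stand in the submitters' processing notes. Whether intronic reads were counted is not given in the sources used here. With introns, genes that overlap on the same strand can share reads. In GENCODE M21 an antisense-type gene and a microRNA gene lie within Rb1 on its strand. No column was left unmapped.

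Barcodes with at least 500 UMIs, 250 genes and at most 20% mitochondrial UMIs were kept and given doublet scores by Scrublet in scanpy 1.11.5. The highest-scoring barcodes of each library, 818 in all, were removed as likely doublets. Their number was set by an assumed rate of 0.8% per 1000 barcodes and is no count of doublets found. Cells were clustered by the Leiden method (2000 variable genes, 30 components, 20 within the epithelium, 15 neighbours, resolution 1), without pathway genes. A cluster needed a marker score of 1.5 and 3 markers detected in 20% of cells. Its leading genes could not hold more markers of another class, and shallow clusters without an own marker among them were not named. Clusters 11 and 22, led by haemoglobin or secretory genes (1.59% to 7.04% of cells per library), stayed unnamed, as did cluster 20 (214 cells, led by Ccl5 and Gzma). Epithelial clusters with 3 ciliary markers detected and a mean ciliary level not below the cluster average were classed as ciliated, the others as non-ciliated. E17 (51 cells), led by fibroblast genes, was left out of both.

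Counts were summed per library and class with at least 10 cells and tested with edgeR 4.0.16 (TMM, filterByExpr with minimum count 10 and total 15, quasi-likelihood F test, adjusted p under 0.05). Class comparisons had the library as a block, and region comparisons had none. The script was tested on simulated counts: for ciliated against non-ciliated epithelium (15217 genes) it called 87 of 100 genes changed 2-fold and 100 of 100 changed 4-fold, and for the sections in non-ciliated epithelium (12498 genes) 2 and 49.

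The members and lists were chosen with earlier results of these data known. Named genes are all 8 members and, per list and comparison, at most 4 per direction with the largest called change, of which those the text turns on are given, and the 3 most alike per member. Alternatives were RLE scaling, DESeq2 1.42.0, no filter, each library left out, a 10% mitochondrial maximum, doublets kept, resolution 0.5, thinned distal sums, other block choices, and detection at 500 or 2000 UMIs. Leaving out E9 (tests, levels and ratios), and counting clusters 11 and 22 as non-ciliated, were added after seeing the data. Each library is a pool, so p-values measure the spread between pools.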

Additional observations from a re-analysis of the deposited data

Results flagged for a closer look

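For 4 pathway genes that are not among the 8, the region effect in non-ciliated epithelium differed from that in fibroblasts in edgeR's interaction test. They are 2 of 32 p53 targets tested (6.25%) and 2 of 30 RB pathway genes (6.67%), where 1.9% of all genes were called. Of 18 p53 regulators and relatives and 23 E2F targets, 0 were called. Ccnd2 differed by 5.49 ± 0.44 (adjusted p = 2.62e-05), with 1.54 CPM in distal and 52.5 CPM in proximal non-ciliated cells and 180 and 112 CPM in fibroblasts, and it stayed called under all 15 alternatives. Gdf15, a p53 target and stress cytokine gene, differed by 4.31 ± 0.64 (adjusted p = 0.00264), from 4.57 to 65.4 CPM in non-ciliated cells and from 7.88 to 1.79 CPM in fibroblasts. Without proximal 4 its call was lost (3.71, adjusted p = 0.066). Eda2r, a p53-induced receptor gene, differed by -2.93 ± 0.63 (adjusted p = 0.0266). Its call was lost without distal 1 (-2.64, adjusted p = 0.101), distal 3 (-2.87, 0.111), proximal 3 (-2.42, 0.0886) or proximal 4 (-3.48, 0.1), with distal sums thinned to proximal depth (-2.74, 0.1145) and without the replicate block (-2.97, 0.144). Cdkn1c differed by 1.79 ± 0.43 (adjusted p = 0.046), and its call was lost under 7 of 15 alternatives: without distal 1 (2.01, adjusted p = 0.08535), distal 3 (1.60, 0.238) or proximal 4 (1.38, 0.209), without the replicate block (1.67, 0.274), with thinned distal sums (2.11, 0.0528), at resolution 0.5 (1.69, 0.072) and with clusters 11 and 22 (1.69, 0.0719).

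Each of the 8 genes was also screened in 3 class pairs, over the libraries with at least 20 cells of both classes. Of these differences, 4 ran one way in every distal library and the other way in every proximal library. The share of all genes that do so was not counted, and the proximal libraries are few. None of the 4 was tested, and all are on the log2 scale of CPM plus 5. Cdkn1a in smooth muscle minus fibroblasts averaged -0.65 in distal and 2.58 in proximal libraries, from 13 and 47 proximal UMIs. Smooth muscle was 91.35% C4 in distal and 85.3% C19 in proximal libraries, and the class name of C19 is uncertain, as described above. Distal C19 was itself at 439.7 CPM against 76.7 CPM in distal C4. Cdkn1b in the same pair averaged 0.27 and -2.38, from 0 and 1 proximal smooth muscle UMIs, where 3 counts in proximal 3 and 4 pooled would be 36.7 CPM. Rbl2 in ciliated minus non-ciliated epithelium averaged 0.28 and -1.34, from 0 and 3 proximal ciliated UMIs. Rbl2 in non-ciliated epithelium minus fibroblasts averaged -0.23 and 0.68, from 17, 8 and 18 proximal non-ciliated UMIs.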

How the results depend on the processing

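Of 783 values of the 8 genes under alternatives, 713 kept their direction and side of the threshold, 19 lost a call, 6 gained one and 45 changed sign. Another 1317 values belong to pathway genes picked for a large called change in the same comparison, at most 4 per list and direction. That choice favours a stable sign, so they cannot be set against the 8 genes, which were followed whether called or not. Of these 1317 values, 118 lost a call and 0 changed sign. The cause was not tested for any of these. The proximal libraries, 1 of them with 426707 UMIs, set the depth limit.

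Genes called between sections numbered 438 in non-ciliated epithelium, 1387 without a low-count filter, 1489 by DESeq2, 93 with distal sums thinned to proximal depth, and 6 to 3130 with 1 library left out, the highest without proximal 2. In ciliated epithelium they numbered 119, then 696 without a filter, 586 by DESeq2, 34 with a 10% mitochondrial maximum, 378 without E9, 68 thinned and 1 to 96 with 1 library left out. In fibroblasts they numbered 406, then 1404 without a filter, 180 thinned and 44 to 1959 with 1 left out, the highest without proximal 2. The region effect called 300, then 632 without a filter, 166 thinned, 112 without the library block and 80 to 573 with 1 left out. Smooth muscle against fibroblasts called 6240, then 4156 by DESeq2, 4101 without the block, 3692 with proximal libraries added and 3687 to 6606 with 1 left out, the lowest without distal 1. Left-out libraries gave 6770 to 8087 calls in ciliated against non-ciliated epithelium (8871 in all) and 8679 to 10711 in non-ciliated epithelium against fibroblasts (10732). Members detected in more ciliated cells of every distal library numbered 4, then 5 at 500 UMIs per cell, 5 at 2000 and, without thinning, 2. Members with a higher CPM there numbered 5, then 4 under TMM scaling and 5 to 6 with 1 library left out.

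The group numbers in the titles pair distal 2 and 3 with proximal 2 and 3, while the numbers in the descriptions pair distal 3 with proximal 4, so each gives 2 pairs, and whether equal numbers mark the same mice is not given in the sources used here. Same-numbered deviations from the group means correlated over genes at r = 0.57 in non-ciliated epithelium and 0.36 in fibroblasts for number 2, at 0.325 and 0.12 for title number 3, and at 0.37 and 0.046 for description number 4. With a replicate block by title number, description number or number 2 alone, non-ciliated calls were 549, 532 and 1519 and fibroblast calls 519, 630 and 1182. In ciliated epithelium the block by title number could not be fitted, and the others gave 178 and 232. None of the 8 genes was called under a block.

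The sign changes were as follows, as log2 fold changes. Between sections in non-ciliated epithelium Trp53 gave -0.22 to 0.58 with 1 library left out (sign changed without proximal 2). Mdm2 gave -1.02 to 0.021 with 1 library left out (sign changed without proximal 2). Mdm4 gave -0.077 to 0.90 with 1 library left out (sign changed without proximal 4), -0.047 with the title block and -0.057 with the description block. Cdkn1a gave -0.46 to 0.24 with 1 library left out (sign changed without distal 2 or distal 3 or proximal 2), 0.019 at a 10% mitochondrial maximum, 0.0078 at resolution 0.5, 0.014 with clusters 11 and 22 and 0.14 thinned. Cdkn1b gave -0.064 to 0.20 with 1 library left out (sign changed without proximal 2 or proximal 4) and -0.14 without a filter. Rb1 gave -1.09 to 0.48 with 1 library left out (sign changed without distal 2 or proximal 4), -0.16 without a filter and -0.88 with the title block. Between sections in ciliated epithelium Mdm2 gave -1.03 to 1.19 with 1 library left out (sign changed without proximal 4). Mdm4 gave -1.02 to 0.15 with 1 library left out (sign changed without distal 3 or proximal 2). Rb1 gave -0.82 to 0.10 with 1 library left out (sign changed without proximal 2) and 0.0048 at a 10% mitochondrial maximum. Rbl2, with 0 UMIs in proximal 2, gave -8.68 to 0.20 with 1 library left out (sign changed without proximal 2). Between sections in fibroblasts Rb1 gave -0.32 to 0.49 with 1 library left out (sign changed without proximal 4) and -0.16 with the title block. Rbl2 gave -0.18 to 0.12 with 1 library left out (sign changed without distal 2 or distal 3 or proximal 4), -0.13 without a filter, -0.014 by DESeq2 and -0.0019 at a 10% mitochondrial maximum. In ciliated against non-ciliated epithelium Rbl1 gave -0.40 to 0.30 with 1 library left out (sign changed without distal 2 or distal 3) and 0.087 without E9. In non-ciliated epithelium against fibroblasts Rbl2 gave 0.015 with proximal libraries added. In smooth muscle against fibroblasts Mdm4 gave -0.19 to 0.040 with 1 library left out (sign changed without distal 2). Cdkn1a gave 0.070 with proximal libraries added. In the region effect Mdm2 gave -1.16 to 0.20 with 1 library left out (sign changed without proximal 2 or proximal 3). Rb1 gave -1.15 to 0.091 with 1 library left out (sign changed without proximal 2). Rbl1 gave -0.23 to 0.67 with 1 library left out (sign changed without distal 1 or proximal 2) and -0.047 without a filter.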
